A study of Mus musculus with 18 samples.

Results

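The comparison described here set the irradiated epidermis of mice that express osteopontin, tg(K14-OPN) and wild type (WT), against the irradiated epidermis of mice that lack it (OPN-null). It used 10 of the 18 RNA-seq libraries of the series, chosen by their genotype and treatment labels. These were 3 K14-OPN libraries (numbers 1, 2 and 3), 3 WT libraries (6, 7 and 8) and 4 OPN-null libraries (13, 14, 15 and 16), so that 6 OPN-expressing libraries stood against 4 OPN-null libraries. The K14-OPN and WT means had equal weight, and a gene was described as shared when both genotypes deviated from OPN-null in the same direction. All mice were males of 10 weeks, shaved 48 h before a single UVB dose of 180 mJ/cm2. Dorsal skin was taken 24 h after the exposure, and the epidermis was scraped off with a razor blade into the RNA reagent. In tg(K14-OPN) mice the keratin 14 promoter, which is active in basal keratinocytes, drives osteopontin on an OPN-null background, so these mice also carry the OPN-null allele. Unirradiated epidermis of the same genotypes (3 K14-OPN, 2 WT and 3 OPN-null libraries) served to ask whether a difference was also seen without UVB. Among its stated purposes, the study asks whether osteopontin is made from the transgene, and whether K14-OPN against OPN-null resembles WT against OPN-null after UVB. The labels do not say which samples are separate animals, so all p-values refer to the variation among these samples, which may be technical.

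Osteopontin, encoded by Spp1, is a secreted phosphoprotein that cells bind through integrins and the hyaluronan receptor CD44. It is made by macrophages, activated T cells, bone cells and injured or irritated epithelia. UVB damages DNA in keratinocytes, which is followed by p53 signalling, release of EGFR ligands, influx of neutrophils and macrophages, and thickening of the epidermis. The barrier that keratinocytes rebuild consists of cornified envelope proteins held in a matrix of ceramides, fatty acids and cholesterol.

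The 10 libraries held 6845989 to 26068614 counts on genes and detected 17845 to 25344 genes. They were of 2 kinds, which the labels do not mention. In 3 libraries (K14-OPN 1, WT 8 and OPN-null 16) the small nuclear RNA Rn7sk had more counts than the mitochondrial leucyl-tRNA synthetase gene Lars2, and in the other 7 it had fewer. These are called 7SK-rich and Lars2-rich below, and each genotype had 1 7SK-rich library. The kind of library was a term in the fits unless stated otherwise, and values within a kind are given for the main results. The Lars2-rich OPN-null libraries detected the fewest genes, 17845 to 18168, from 8462748 to 9410712 counts. Lars2-rich OPN-expressing libraries detected 18289 to 23859 genes, from 6845989 to 26068614 counts. The 7SK-rich OPN-null 16 detected 25344 genes and the 7SK-rich OPN-expressing pair 24067 to 24748. The 12 epidermal identity genes summed to 39750 to 56950 normalised counts (CPM, scaled to library size) in K14-OPN, 27490 to 54140 in WT and 27680 to 48200 in OPN-null libraries. The 18 dermal fibroblast markers summed to 370 to 910 CPM in K14-OPN, 288 to 728.5 in WT and 150 to 1243 in OPN-null libraries. In bulk tissue, fewer cells of a type and less RNA per cell cannot be told apart.

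Spp1 was at 341 CPM or more in 5 of the 6 OPN-expressing libraries, at 16.8 CPM in WT 8, and at 9.26 CPM or less in every OPN-null library. It had 952, 404 and 426 CPM in K14-OPN libraries 1, 2 and 3. The WT libraries 6, 7 and 8 had 341, 485 and 16.8 CPM. OPN-null libraries 13 to 16 had 3.33, 9.26, 2.21 and 2.31 CPM, from 20 to 74 counts each. The lowest OPN-expressing value, in the 7SK-rich WT 8, was still above the highest OPN-null value, so the groups did not overlap. The averaged difference was 6.70 ± 0.89 on the log2 scale (SE; 104-fold; adjusted p = 0.0348, edgeR quasi-likelihood test). An exact two-sided permutation test of mean log2 CPM gave p = 0.004762, the smallest that 6 against 4 libraries can give. The difference was 7.46 for K14-OPN and 5.93 for WT, and that between the genotypes, 1.53 ± 0.94 on the log2 scale, did not pass (adjusted p = 0.597). The 7SK-rich libraries alone gave 5.69 and the Lars2-rich libraries alone 6.40. Leaving out single libraries gave 5.75 to 7.29, and in 6 of those 10 fits (without K14-OPN 2 or 3, WT 6, or OPN-null 13, 14 or 15) the adjusted p was 0.0795 to 0.183.

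Without UVB, Spp1 had 58.7, 70.4 and 34.5 CPM in K14-OPN libraries 1, 2 and 11. The WT libraries 10 and 11 had 45.2 and 2.53 CPM, and OPN-null libraries 8, 9 and 10 had 2.64, 0 and 3.66 CPM. The 3 K14-OPN libraries and WT 10 lay above all OPN-null libraries, whereas WT 11 lay within their range. The averaged difference without UVB was 3.58 ± 1.07 (adjusted p = 0.499, edgeR quasi-likelihood test). It was 3.06 ± 1.29 smaller than after UVB (unadjusted p = 0.030), on the log2 scale. The gene lies at chr5:104435118-104441050 on the plus strand (GRCm38). Its RefSeq promoter window (GRCm38.p6), from 250 bases before to 50 after the gene's start, is shown because WT mice read the gene from this window, whereas the transgene is read from the keratin 14 promoter. Capitals mark the CCAAT box, read here as ATTGG on the gene's strand.
Spp1, chr5:104434861-104435160, plus strand: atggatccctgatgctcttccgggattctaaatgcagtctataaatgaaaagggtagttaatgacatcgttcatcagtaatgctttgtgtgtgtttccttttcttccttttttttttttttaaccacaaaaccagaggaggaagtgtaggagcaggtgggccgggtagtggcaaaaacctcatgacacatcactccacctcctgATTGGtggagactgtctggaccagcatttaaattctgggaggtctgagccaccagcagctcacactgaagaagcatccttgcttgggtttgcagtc

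**Figure D1:**
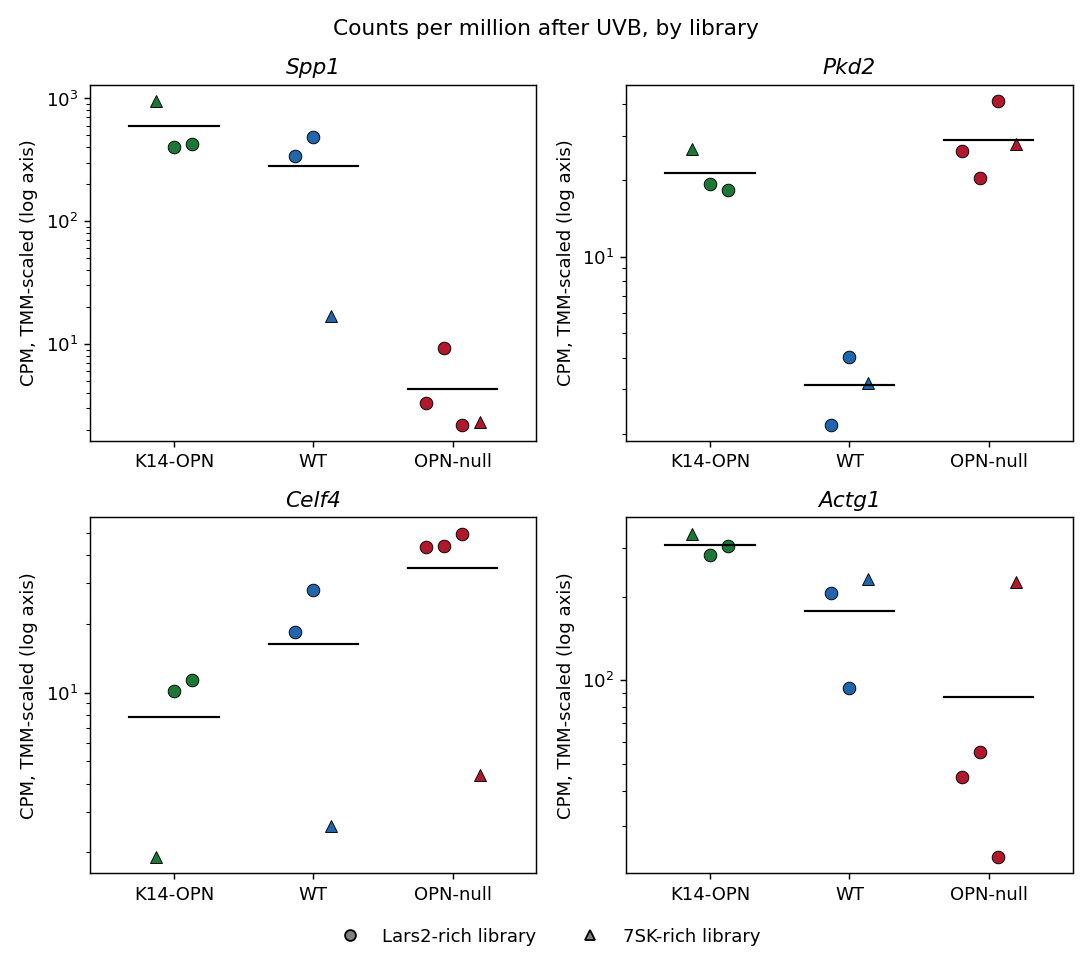
Normalised counts (CPM, log axis) of Spp1, Pkd2, Celf4 and Actg1 in each of the 10 irradiated libraries, grouped as K14-OPN, WT and OPN-null from left to right. Circles are Lars2-rich and triangles 7SK-rich libraries, and lines are group means: Spp1 separates both OPN-expressing genotypes from OPN-null, whereas Pkd2 is low in WT only.

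Across the transcriptome, 7 of 16226 genes tested (0.0431%) passed an adjusted p of 0.05 in the averaged comparison, 1 higher (0.00616%) and 6 lower (0.037%), and all 7 had the same sign in both genotypes. An unadjusted p below 0.05 was reached by 2975 genes (18.3%), 1256 of them higher (7.74%) and 1719 lower (10.6%). In 936 genes (5.77%) each genotype reached that level against OPN-null in the same direction, 394 of them higher (2.43%) and 542 lower (3.34%). The number of calls rests on the test and on single libraries: DESeq2 called 1334 genes (358 higher and 976 lower), limma with voom quality weights called 787, and a fit without the library kind term called 0 (1153 at unadjusted p). Leaving out single libraries gave 0 calls for 6 of the 10, 1 without WT 8, 4 without WT 7, 697 without K14-OPN 1 and 1928 without OPN-null 16. Since WT and K14-OPN are set against the same 4 OPN-null libraries, a shared sign is not independent evidence: 70.8% of all genes had it. The 6 OPN-expressing libraries were all above the 4 OPN-null libraries in 115 genes (0.709%) and all below them in 58 (0.357%).

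**Figure D2:**
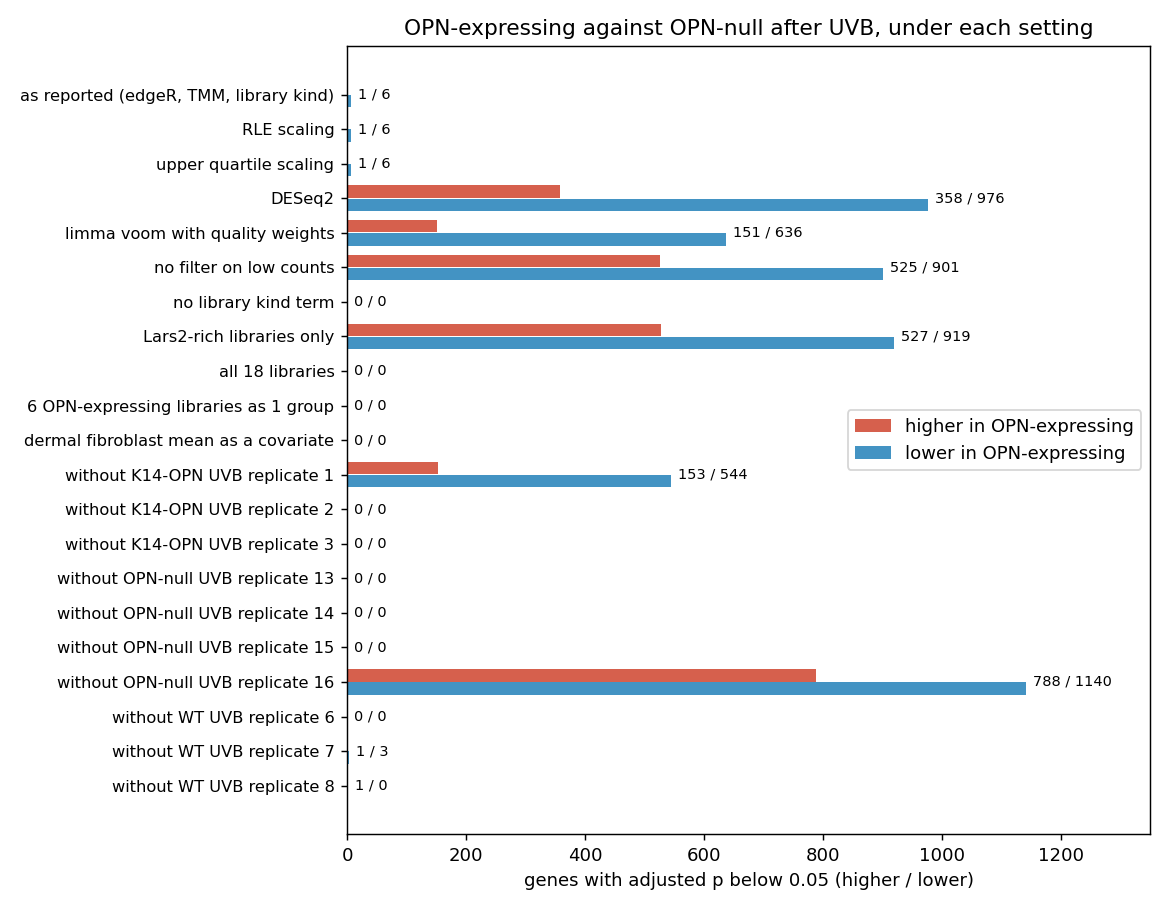
Number of genes passing an adjusted p of 0.05 in the averaged comparison after UVB, higher and lower in the OPN-expressing genotypes, under each setting. Each bar pair is 1 setting: the counts span 0 to 1928 genes across the fits, and the edgeR fit used in the text gave 1 higher and 6 lower.

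Pkd2 encodes polycystin 2, a calcium-permeable cation channel, and lies on the same strand as Spp1, 18399 bases after its end (chr5:104459450-104505819). K14-OPN libraries had 26.6, 19.4 and 18.4 CPM and WT libraries 2.18, 4.01 and 3.17 CPM. OPN-null libraries had 26.2, 20.4, 41.1 and 27.8 CPM. All WT values lay far below every other value, whereas the K14-OPN range overlapped that of OPN-null. The averaged log2 difference of -1.86 ± 0.25 (adjusted p = 0.0348) was thus -3.26 in WT (adjusted p = 0.00732) and -0.46 in K14-OPN (unadjusted p = 0.136). The difference between K14-OPN and WT was 2.80 ± 0.34 on the log2 scale (adjusted p = 0.0124), in a comparison that called 343 of all genes (2.11%) but 0 without K14-OPN 2 or without WT 7. Pkd2 was the only gene called in WT against OPN-null (1 of 16226, 0.00616%), and it was not called there when WT 6 or WT 8 was left out. K14-OPN mice carry the OPN-null background, and its part in the Pkd2 values was not tested. Without UVB its averaged log2 difference was -1.37 (unadjusted p = 0.0013). Of the 28 genes within the listed chromosome 5 neighbourhood of Spp1, 19 were tested and Pkd2 alone passed, with a median log2 difference of -0.05 over the 19.

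Celf4, which encodes an RNA-binding protein of neurons, was the other named gene that fell. It had 1.91, 10.1 and 11.4 CPM in K14-OPN, 18.4, 28.1 and 2.62 CPM in WT, and 43.1, 43.7, 49.5 and 4.38 CPM in OPN-null libraries. The Lars2-rich OPN-null libraries were above all 6 OPN-expressing libraries, and the 7SK-rich OPN-null 16 was above the 2 other 7SK-rich libraries. Its log2 difference was -1.39 ± 0.20 (adjusted p = 0.039), -1.85 in K14-OPN and -0.93 in WT. The other 4 calls fell outside the rule for named genes and were all lower: Gm9774 (-1.94), the predicted coding gene Gm10837 (-4.60, with OPN-null 16 at 0), and the processed pseudogenes Gm5805 (-1.47) and Rps12-ps4 (-1.72), all as log2 differences. Reads of these pseudogenes may be shared with their parent genes, so their counts are uncertain. All 6 lower calls, Pkd2 and Celf4 included, also passed without K14-OPN 1 and without OPN-null 16, 3 of them passed without WT 7, and none passed when any other single library was left out.

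By the naming rule, the 11 further genes with the smallest p among those higher by at least 1 on the log2 scale are given, and none of them passed (adjusted p 0.081 to 0.0933). Sprr2a3 (a small proline-rich protein of the cornified envelope, with near-identical copies that make its counts uncertain) differed by 1.71 on the log2 scale and Tgm5 (transglutaminase 5, which crosslinks envelope proteins) by 1.10. Dnase1l2 (the nuclease that removes nuclear DNA from cornifying cells) differed by 1.23 and Serpinb12 (an epithelial protease inhibitor) by 1.29. The Dnase1l2 values were 81.9, 81.4 and 63.8 CPM in K14-OPN, 69.8, 49.8 and 63.2 CPM in WT, and 21.7, 29.5, 15.4 and 52.1 CPM in OPN-null libraries. Only the 7SK-rich OPN-null 16 reached into the OPN-expressing range for Dnase1l2.

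Actg1, the gene of cytoplasmic gamma actin, was the most abundant of the 11. K14-OPN libraries had 337, 282 and 303 CPM, WT libraries 206, 93.5 and 231 CPM, and OPN-null libraries 44.7, 55.4, 23.2 and 225 CPM. The 3 Lars2-rich OPN-null libraries lay below every OPN-expressing library, and OPN-null 16 lay among them. The log2 difference was 1.71 ± 0.40 (adjusted p = 0.0933), 2.15 in K14-OPN and 1.28 in WT. Gde1, a glycerophosphodiester phosphodiesterase, had the same pattern, with 42.6, 53.8 and 47.4 CPM in K14-OPN, 31.6, 22.3 and 46.3 CPM in WT, and 7.14, 7.63, 6.17 and 41.7 CPM in OPN-null libraries. Akr1c18 (20-alpha-hydroxysteroid dehydrogenase, which inactivates progesterone; log2 difference 2.24) and Echdc3 (an enoyl-CoA hydratase family member; 2.30) were the 2 of the 11 whose groups did not overlap. Of all genes, 0.709% had the 6 OPN-expressing libraries all above the 4 OPN-null ones, and these 11 were chosen by p in the same comparison. Akr1c18 had 8.34, 7.76 and 7.86 CPM in K14-OPN, 4.06, 4.96 and 2.74 CPM in WT, and 1.67, 0.751, 0.551 and 1.69 CPM in OPN-null libraries. Spns2, the sphingosine-1-phosphate transporter, differed by 1.22 and Appl2, an adaptor of endosomes, by 1.07. Eno1b, a copy of the enolase 1 gene whose counts are uncertain for that reason, differed by 1.25.

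The 10 genes that complete the 12 lower ones did not pass either (adjusted p 0.0796 to 0.0902). Gnas, the stimulatory G protein alpha subunit, had 24.9, 38.8 and 33.7 CPM in K14-OPN, 55.9, 89.2 and 51.0 CPM in WT, and 104.9, 169, 212 and 62.1 CPM in OPN-null libraries. Its K14-OPN libraries were all below the WT libraries, and OPN-null 16 lay inside the WT range. The log2 difference was -1.44 ± 0.23. Foxq1, a forkhead transcription factor known in mice for its part in hair shaft structure, had 10.1, 16.3 and 15.7 CPM in K14-OPN, 25.5, 71.4 and 21.6 CPM in WT, and 166, 87.8, 102 and 26.9 CPM in OPN-null libraries, a log2 difference of -1.79 ± 0.31. B4galt6, which makes lactosylceramide from glucosylceramide, had 11.3, 7.96 and 6.89 CPM in K14-OPN, 23.2, 41.2 and 30.9 CPM in WT, and 84.2, 50.3, 57.1 and 28.6 CPM in OPN-null libraries. For B4galt6 the genotypes differed from each other, by -1.85 for K14-OPN minus WT (adjusted p = 0.0267). The remaining log2 differences were -2.38 for Bc1 (a small cytoplasmic RNA of neurons), -1.45 for Krtap3-1 (a hair keratin-associated protein of a multigene family), -1.37 for Fbxo36, -1.28 for Zcchc3, -1.35 for Samd4b, -1.06 for Twistnb (an RNA polymerase I subunit) and -1.24 for Syt12.

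**Figure D3:**
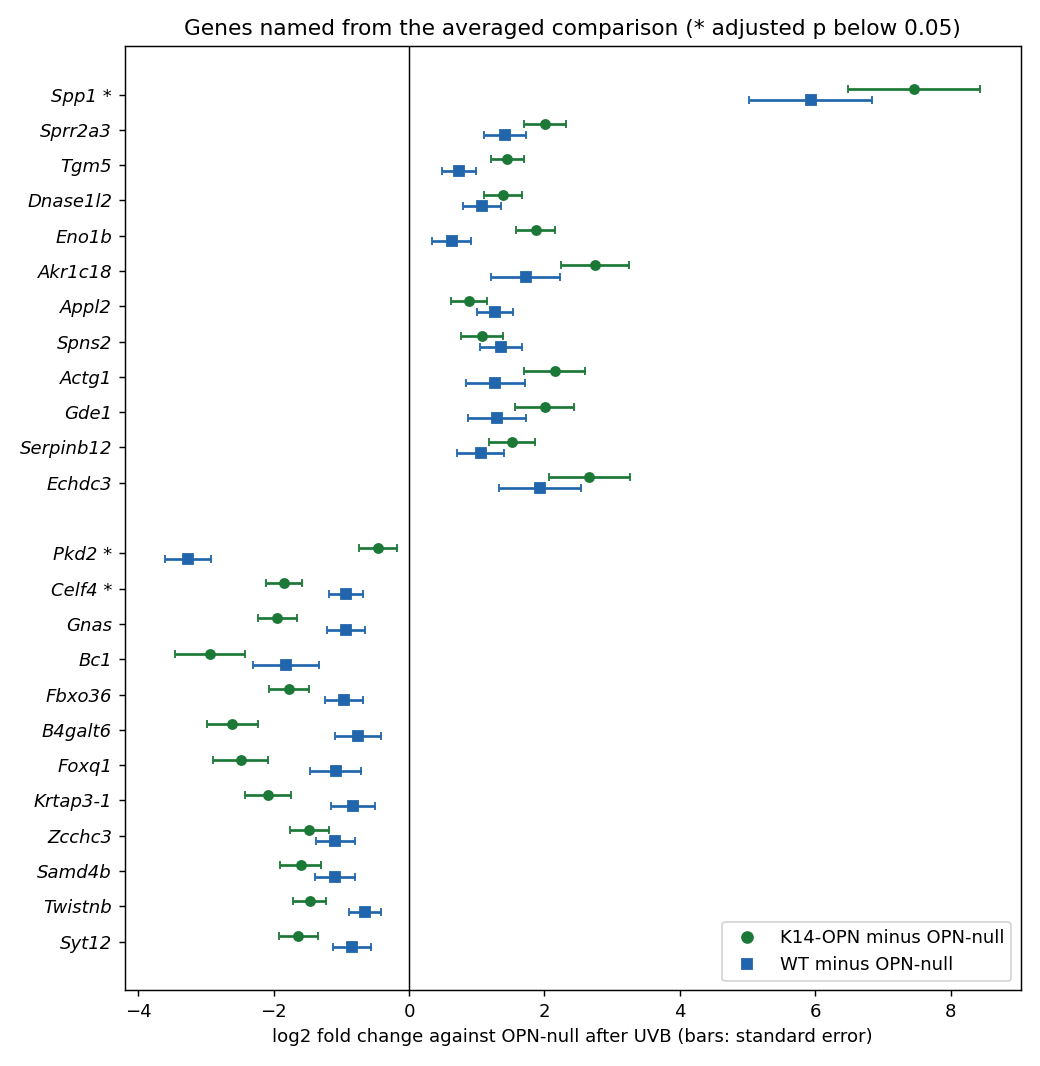
Log2 fold change (± SE) of the 24 named genes in K14-OPN against OPN-null and in WT against OPN-null after UVB, with both comparisons sharing the 4 OPN-null libraries. Asterisks mark an adjusted p below 0.05: the signs match in all 24, and Pkd2 is the gene where WT differed by -3.26 and K14-OPN by -0.46.

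These genes were chosen by their values in the averaged comparison, so their agreement between genotypes is a description. Each genotype had an unadjusted p below 0.05 for 12 of the 12 higher and 11 of the 12 lower genes, and K14-OPN differed from WT in 2 of the 24, Pkd2 and B4galt6. In libraries that the choice did not use, those without UVB, 8 of the 12 higher genes were again higher, where 54.1% of all genes were. Of the 12, 3 had an unadjusted p below 0.05 (6.12% of all genes). Of the 12 lower genes, 6 were again lower, where 45.9% of all genes were, and 1, Pkd2, had such a p (3.54% of all genes). The shares by sign are near those of all genes and are not a result about the named genes. The counts by p are small, and the 12 higher genes include Spp1, the gene that defines the genotypes. The median absolute log2 difference of the 28 named or called genes was 1.68 in the Lars2-rich libraries and 0.612 in the 7SK-rich ones (2 OPN-expressing against 1 OPN-null). Since 7 of the 10 libraries that chose these genes are Lars2-rich, the choice itself favours larger values there, and the contrast between kinds is a description. A fit on the Lars2-rich libraries alone called 1446 genes (527 higher and 919 lower). Of the 1444 also measured over all 10 libraries, 50.9% kept their sign among the 7SK-rich ones, against 48.5% of all genes.

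Transcript classes differed along the same lines. The median log2 difference was 0.05 for 13029 protein-coding genes, but -1.18 for 915 genes of the TEC class (unspliced transcripts awaiting further evidence in the annotation), -1.07 for 108 sense-intronic and -1.43 for 32 small nuclear RNA genes. The nuclear RNA Malat1 had 2710 to 7662 CPM in the Lars2-rich OPN-expressing libraries and 12610 to 21770 CPM in the Lars2-rich OPN-null libraries. Among the 7SK-rich libraries it had 11120 to 15110 CPM in the OPN-expressing pair and 13150 CPM in OPN-null 16. TEC, sense-intronic and small nuclear RNA genes held 0.151% to 0.236% of counts in the Lars2-rich OPN-expressing libraries and 0.336% to 0.500% in the Lars2-rich OPN-null ones. Among the 7SK-rich libraries they held 0.506% to 0.644% in the OPN-expressing pair and 0.545% in OPN-null 16, which lay between them. The part of this shift in the values of single genes was not tested.

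Genes of cholesterol synthesis had positive differences in both genotypes with few exceptions. Of 22 genes, 21 were tested, and 20 of these had positive averaged differences. The median log2 difference was 0.43 (0.30 in K14-OPN and 0.44 in WT), against 0.0046 over all genes (0.0107 and 0.0029). An unadjusted p below 0.05 was reached by 12 higher members and 0 lower ones, against 7.74% and 10.6% of all genes. The median was 0.50 in the Lars2-rich and 0.14 in the 7SK-rich libraries alone. None passed after adjustment (lowest adjusted p 0.0944), whereas DESeq2 called 5 of the list higher (358 of all genes), limma voom 3 (151 of all genes) and the Lars2-rich libraries alone 4 (527 of all genes). Leaving out single libraries left 9 to 13 higher members at that unadjusted level. Without the library kind term 4 reached it and over all 18 libraries 5 did, with 0 called in either fit. Of all genes, 1153 and 1766 reached it in those fits, in either direction. No member differed between K14-OPN and WT after adjustment.

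Hsd17b7, which reduces the keto group of sterol precursors, had 110, 62.2 and 71.7 CPM in K14-OPN, 71.4, 60.3 and 93.5 CPM in WT, and 39.6, 31.4, 50.8 and 74.4 CPM in OPN-null libraries. Apart from OPN-null 16, every OPN-null library was below every OPN-expressing library. The log2 difference was 0.63 ± 0.16 (adjusted p = 0.0944), and 0.45 in the 7SK-rich libraries alone. Lss (lanosterol synthase, which closes the sterol rings) had a log2 difference of 0.79 (adjusted p = 0.113), and Dhcr7 (a reductase of the last steps to cholesterol) one of 0.66 (adjusted p = 0.109). Lss had 107, 60.5 and 75.4 CPM in K14-OPN, 74.1, 49.8 and 118 CPM in WT, and 30.5, 24.0, 34.7 and 111 CPM in OPN-null libraries. In the 7SK-rich libraries alone its log2 difference was 0.02. The mean log2 CPM of the tested genes was 6.00 to 6.27 in K14-OPN and 6.08 to 6.31 in WT libraries. It was 5.48 to 5.75 in the Lars2-rich OPN-null libraries and 6.08 in OPN-null 16.

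Promoters of this list are shown because 20 of its 21 members had differences of one sign and a common short motif recurs in them. Of the 21 tested genes, 14 had a RefSeq promoter window, and all 14 held CCAAT on either strand in at least 1 window, against 42.1% of 10875 tested genes with a window. By window it was 14 of 17 (82.4%), against 37.4% of all 32851 windows. CCAAT is the letters that the factor NF-Y is known to bind, and a match is a description of the sequence, not a bound site. Windows run 5′ to 3′ on the gene's strand from 250 bases before to 50 after the start (RefSeq, GRCm38.p6), with the motif in capitals.
Lss, chr10:76531355-76531654, plus strand: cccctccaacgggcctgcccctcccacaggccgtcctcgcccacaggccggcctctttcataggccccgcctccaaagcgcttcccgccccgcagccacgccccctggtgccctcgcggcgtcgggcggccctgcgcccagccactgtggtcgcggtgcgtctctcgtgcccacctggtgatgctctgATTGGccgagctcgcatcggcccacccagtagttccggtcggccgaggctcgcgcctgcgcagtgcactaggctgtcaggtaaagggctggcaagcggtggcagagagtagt
Hsd17b7, chr1:169969156-169969455, minus strand: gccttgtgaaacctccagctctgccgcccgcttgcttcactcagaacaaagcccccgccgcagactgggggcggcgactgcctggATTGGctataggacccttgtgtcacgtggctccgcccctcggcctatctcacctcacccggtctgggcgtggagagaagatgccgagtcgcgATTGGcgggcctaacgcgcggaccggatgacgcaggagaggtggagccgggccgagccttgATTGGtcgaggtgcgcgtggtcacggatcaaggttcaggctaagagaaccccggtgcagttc
The Lss window held 1 match, 62 bases before the start, and that of Hsd17b7 held 3.

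**Figure D4:**
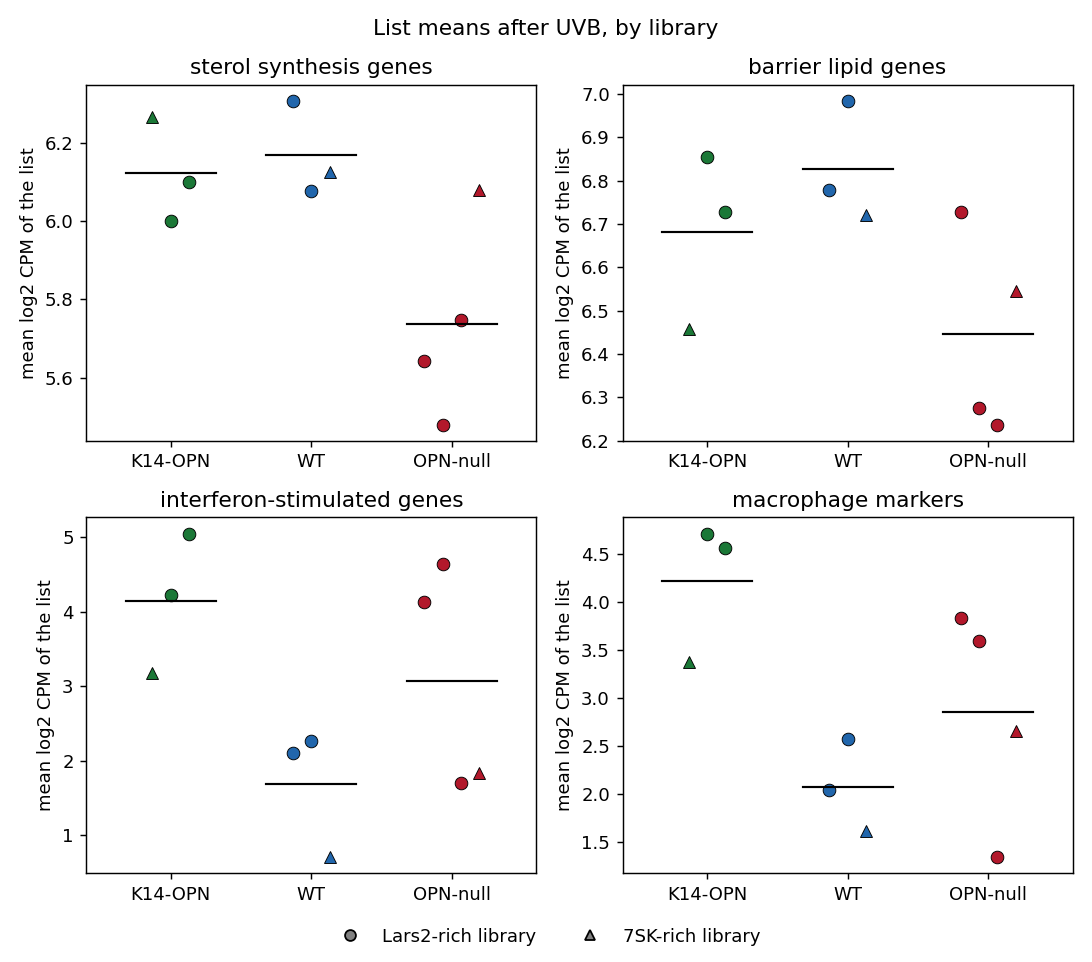
Mean log2 CPM of the tested sterol synthesis, barrier lipid, interferon-stimulated and macrophage marker genes in each irradiated library, in the order K14-OPN, WT and OPN-null. Circles are Lars2-rich and triangles 7SK-rich libraries: sterol genes are higher in both OPN-expressing genotypes than in the 3 Lars2-rich OPN-null libraries, and interferon and macrophage genes are lower in WT than in K14-OPN.

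Genes that build the lipid barrier had 18 of 24 positive differences, a median of 0.29 on the log2 scale (0.20 in K14-OPN and 0.30 in WT), and 9 higher and 1 lower at an unadjusted p below 0.05, against 7.74% and 10.6% of all genes. The median was 0.31 in the Lars2-rich and 0.16 in the 7SK-rich libraries alone. Sdr9c7, a dehydrogenase needed to bind ceramides to the envelope, had 182, 129 and 135 CPM in K14-OPN, 139, 88.6 and 129 CPM in WT, and 65.3, 59.9, 30.4 and 116 CPM in OPN-null libraries. The highest OPN-null value, in the 7SK-rich library, lay above WT 7 only. Its log2 difference was 0.99 ± 0.24 (adjusted p = 0.0933). Abhd5, the co-activator of the lipases of barrier lipid synthesis, differed by 0.60, and Sptlc2, a subunit of the first enzyme of ceramide synthesis, by 0.57. Alox8, an arachidonate lipoxygenase, was the lower one at -1.05, with -1.72 in K14-OPN and -0.37 in WT.

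Among 30 suprabasal and cornified envelope genes the median log2 difference was 0.25, but 0.05 in K14-OPN and 0.44 in WT, with 9 higher and 3 lower at an unadjusted p below 0.05 (all genes 7.74% and 10.6%). Rptn (repetin, an envelope protein) had 331, 423 and 485 CPM in K14-OPN, 177, 352 and 76.8 CPM in WT, and 120, 190, 84.2 and 103 CPM in OPN-null libraries, a log2 difference of 1.21 ± 0.30 (adjusted p = 0.0933). All 3 K14-OPN values were above every OPN-null value, and the WT values were not. Dsc1 (desmocollin 1, an adhesion protein of upper layers) differed by 1.06, Casp14 (the caspase that processes filaggrin) by 0.72 and Hrnr (hornerin) by 0.68. K14-OPN was lower than WT in 5 of the 30 and higher in 0 after adjustment, where 0.265% of all genes were called lower and 1.85% higher. The 15 basal keratinocyte genes had a median of 0.57 in K14-OPN and -0.06 in WT, and 3 were higher in K14-OPN than in WT. Lamb3, a chain of the basement membrane laminin, was one, at 489, 405 and 453 CPM in K14-OPN, 162, 176 and 207 CPM in WT, and 203, 215, 141 and 213 CPM in OPN-null libraries (K14-OPN minus WT 1.31, adjusted p = 0.0124). Every K14-OPN value of Lamb3 lay above all others, and WT and OPN-null overlapped.

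No member of the stress and growth factor lists passed after adjustment by edgeR. At an unadjusted p below 0.05, which 7.74% of all genes reached as higher and 10.6% as lower, the NRF2, heat shock and EGFR lists had members in both directions. In the NRF2 and antioxidant list (22 genes, median 0.09), 4 were higher and 3 lower at that level. Mt2, a metallothionein that binds zinc, had 21.9, 113 and 79.0 CPM in K14-OPN, 107, 163 and 8.47 CPM in WT, and 310, 299, 275 and 25.0 CPM in OPN-null libraries. Lars2-rich OPN-null libraries lay above all others, and all 3 7SK-rich libraries were low. The log2 differences were -1.19 ± 0.26 for Mt2 and -1.11 ± 0.22 for Mt1 (adjusted p = 0.0933 each). Hmox1, which degrades heme, differed by 0.63. Of 20 unfolded protein and heat shock genes, 7 were higher and 4 lower at that level, among them the chaperones Hspa8 at 0.90 and Hsp90aa1 at -1.01. The 19 EGFR ligands and immediate early genes split into 3 higher and 3 lower: Epgn (epigen) at 0.89, against Hbegf at -0.98 and Areg (amphiregulin) at -0.76, all 3 ligands of the EGF receptor family. Epgn had 354, 438 and 606 CPM in K14-OPN, 690, 426 and 462 CPM in WT, and 228, 277, 262 and 303 CPM in OPN-null libraries. Its groups did not overlap, as in 0.709% of all genes, and Epgn was named for its small p in this comparison. Among the 7SK-rich libraries alone, the log2 differences of Hbegf and Areg turned to 0.16 and 0.18. Of 28 p53 target genes, 0 were higher and 2 lower at that level, with a median of 0.05. DESeq2 called 0 higher and 1 lower, whereas the Lars2-rich libraries alone and the fit without OPN-null 16 each called 2 higher and 0 lower. Of all genes, these 3 fits called 358, 527 and 788 higher and 976, 919 and 1140 lower. The p53 median was 0.19 in the Lars2-rich libraries alone and -0.24 in the 7SK-rich ones, where 7 of the 28 were positive.

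Of the 10 tested receptors that bind osteopontin, 5 had the same sign in both genotypes and 5 opposite signs. Over the 10, the median log2 difference was 0.15 in K14-OPN and -0.58 in WT. Itgb1, the integrin beta 1 subunit, had 537, 472 and 517 CPM in K14-OPN, 241, 210 and 277 CPM in WT, and 246, 306, 238 and 305 CPM in OPN-null libraries. K14-OPN stood above all other libraries for Itgb1, by 1.07 ± 0.17 over WT on the log2 scale (adjusted p = 0.0129). Cd44 and the alpha v integrin Itgav had averaged log2 differences of -0.42 and -0.41 that did not pass, and among the 7SK-rich libraries alone 0.18 and 0.22. Of 24 genes reported downstream of osteopontin signalling, 3 were higher and 3 lower at an unadjusted p below 0.05 (all genes 7.74% and 10.6%). After adjustment 4 were higher in K14-OPN than in WT, where 1.85% of all genes were. Vegfa, the vascular growth factor, had 82.6, 111 and 99.2 CPM in K14-OPN, 32.6, 34.9 and 41.0 CPM in WT, and 41.6, 39.8, 31.4 and 40.9 CPM in OPN-null libraries. Its values in WT and OPN-null overlapped, and K14-OPN exceeded WT by 1.43 ± 0.20 on the log2 scale (adjusted p = 0.0124). The 9 hyaluronan genes, which include the ligand system of CD44, had 1 higher and 3 lower members at that level. Of 29 wound keratinocyte genes 5 were higher and 1 lower, with Serpinb3b at 0.84 and the alarmin Il33 at 0.63, but 17 of the 29 had negative differences. The wound list had a median of 0.26 in K14-OPN and -0.30 in WT, and of -0.15 in the Lars2-rich and 0.32 in the 7SK-rich libraries alone. Among 8 tested members of the Skint family (epidermal proteins, with a member that selects the local gamma delta T cells), the median log2 difference was 0.22 in K14-OPN and 1.77 in WT.

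**Figure D5:**
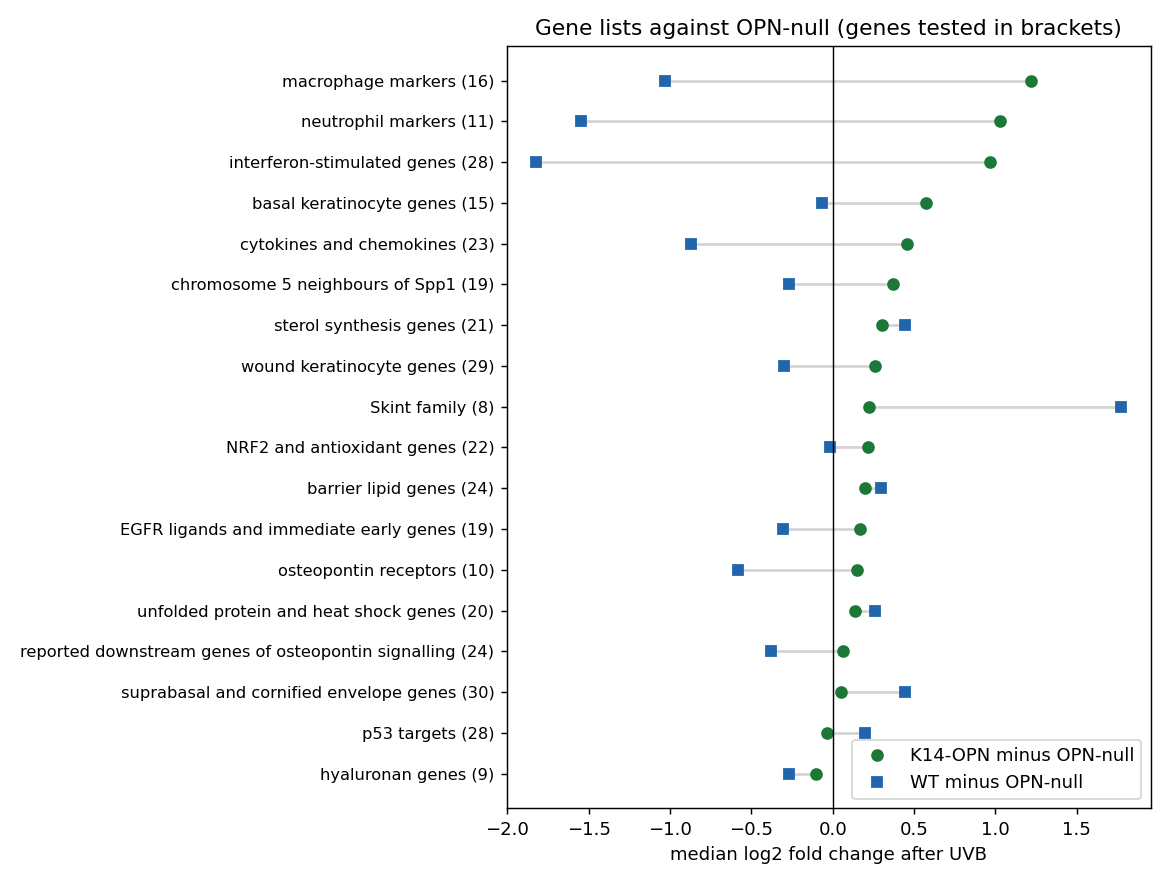
Median log2 fold change of the tested genes of each of the 18 described lists, in K14-OPN against OPN-null (circles) and in WT against OPN-null (squares), after UVB. Sterol and barrier lipid genes lie at 0.20 to 0.44 in both genotypes, while interferon, neutrophil and macrophage genes lie at 0.97 to 1.22 in K14-OPN and at -1.82 to -1.03 in WT.

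Most immune genes had opposite signs in the 2 genotypes against OPN-null, and averages near 0 or below. Of the 343 genes called between K14-OPN and WT, 300 were higher and 43 lower. That number was 0 without K14-OPN 2, without WT 7, without the library kind term or over all 18 libraries, and 31 in the Lars2-rich libraries alone. It was 1 without WT 6, 65 without WT 8, 137 without K14-OPN 3, 167 without K14-OPN 1 and 627 without OPN-null 15. The immune genes named here were chosen by this comparison after their values were seen. K14-OPN against OPN-null had 141 calls (0.869%), 64 higher (0.394%) and 77 lower (0.475%). Of 28 interferon-stimulated genes, 26 had opposite signs in the 2 genotypes, with a median log2 difference of 0.97 in K14-OPN and -1.82 in WT. Over all genes, 70.8% had the same sign. By library, the mean log2 CPM of the list in OPN-null 15 and 16 lay within the WT range of 0.711 to 2.27. That of OPN-null 13 and 14 lay above it. After adjustment, 11 of the 28 were higher in K14-OPN than in WT, against 1.85% of all genes. Oasl2, an interferon-induced protein related to the oligoadenylate synthetases, had 32.6, 56.2 and 63.3 CPM in K14-OPN, 4.66, 3.44 and 1.71 CPM in WT, and 50.2, 54.9, 11.0 and 6.63 CPM in OPN-null libraries. Every K14-OPN value lay above every WT value, and the OPN-null values ran from just above WT into the K14-OPN range. The difference between K14-OPN and WT was 4.02 ± 0.57 (adjusted p = 0.0124), 4.17 for Zbp1, a sensor of Z-form nucleic acids, and 3.12 for the guanylate-binding protein Gbp2, on the log2 scale.

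OPN-null 15 differed from the other Lars2-rich OPN-null libraries in these genes. The mean log2 CPM of the interferon list was 1.70 there, against 4.14 and 4.64 in OPN-null 13 and 14 and 1.83 in OPN-null 16. Without OPN-null 15, WT against OPN-null had 186 called genes, 182 of them lower, in place of 1. The promoters of Isg15 (a ubiquitin-like interferon product) and Oas3 (an oligoadenylate synthetase) are shown because the letters TTTC followed, after any 2 bases, by TTTC again (the core of the interferon-stimulated response element) recur in this list. They were in 13 of 20 list genes with a window (65.0%), against 3.86% of tested genes, on either strand and with overlapping matches counted. Capitals mark the matches, which here lie on the strand opposite to the gene.
Isg15, chr4:156200769-156201068, minus strand: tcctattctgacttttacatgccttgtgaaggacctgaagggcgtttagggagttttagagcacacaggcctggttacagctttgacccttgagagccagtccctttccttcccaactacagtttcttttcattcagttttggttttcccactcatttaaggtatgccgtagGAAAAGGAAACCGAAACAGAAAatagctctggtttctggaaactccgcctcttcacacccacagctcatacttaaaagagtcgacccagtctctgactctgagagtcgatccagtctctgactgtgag
Oas3, chr5:120777610-120777909, minus strand: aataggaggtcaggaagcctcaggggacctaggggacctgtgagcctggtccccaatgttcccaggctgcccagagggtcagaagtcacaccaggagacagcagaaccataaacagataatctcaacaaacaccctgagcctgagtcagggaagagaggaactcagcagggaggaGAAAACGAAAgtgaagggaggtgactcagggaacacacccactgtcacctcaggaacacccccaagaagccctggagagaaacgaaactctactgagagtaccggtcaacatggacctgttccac
K14-OPN exceeded WT in Isg15 by 2.73 on the log2 scale (adjusted p = 0.0316) and in Oas3 by 3.32 (adjusted p = 0.0309).

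By median difference, neutrophil and macrophage markers had the same order, K14-OPN above OPN-null above WT, which the Langerhans and mast cell lists did not share. By library this did not hold for OPN-null and WT. The macrophage list mean was 3.38 to 4.71 log2 CPM in K14-OPN, 1.62 to 2.57 in WT and 1.35 to 3.84 in OPN-null libraries. OPN-null 15 had the lowest value, below all WT libraries. Of 13 Langerhans cell and MHC class II markers 5 had opposite signs, and the median K14-OPN minus WT difference was 0.03. Of 4 tested mast cell markers 1 had opposite signs, and that median was -1.21. Both counts are near that of all genes, of which 70.8% had the same sign. The 8 mast cell markers summed to 192 to 1095 CPM in K14-OPN, 17.2 to 141 in WT and 47.7 to 647.5 in OPN-null libraries. After adjustment 1 of them was higher in K14-OPN than in WT and 0 lower. Outside the myeloid lists, the median was 1.04 for 6 tested endothelial markers, with 1 called higher, and 2.30 for 4 tested erythrocyte markers, with 0 called. The erythrocyte list mean was 1.22, 6.50 and 2.87 log2 CPM in K14-OPN and 1.77, 3.24 and 2.41 in WT libraries. K14-OPN 1 thus lay below all WT libraries. All 11 tested neutrophil markers had opposite signs, with medians of 1.03 in K14-OPN and -1.55 in WT, and 5 were higher in K14-OPN than in WT (1.85% of all genes). The 14 neutrophil markers summed to 1841 to 14790 CPM in K14-OPN, 315 to 3027 in WT and 512 to 11510 in OPN-null libraries, with Trem1 at 0 in all. Csf3r, the receptor of the granulocyte growth factor, had 55.8, 188 and 128 CPM in K14-OPN, 9.91, 8.59 and 5.79 CPM in WT, and 82.1, 108, 29.3 and 20.9 CPM in OPN-null libraries. The WT values lay below all others, and those of OPN-null 15 and 16 lay between WT and K14-OPN. K14-OPN exceeded WT by 3.78 ± 0.44 on the log2 scale (adjusted p = 0.0124). Of 16 macrophage markers, 12 had opposite signs and 7 were higher in K14-OPN, among them the lysosomal protease gene Ctss by 3.15. Of 23 cytokines and chemokines, 15 had opposite signs and 11 were higher in K14-OPN. Il1b, the inflammatory interleukin 1 beta, had 387, 2995 and 2468 CPM in K14-OPN, 419, 515 and 43.8 CPM in WT, and 1645, 2427, 463 and 87.2 CPM in OPN-null libraries, a K14-OPN minus WT difference of 2.78 (adjusted p = 0.0179). The neutrophil chemokine Cxcl1 differed by 1.33 and the monocyte chemokine Ccl3 by 3.36 in the same sense.

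Without UVB, none of 18910 genes passed in the averaged comparison by edgeR (0%), with 1826 at an unadjusted p below 0.05 (9.66%) and 170 called by DESeq2. The median log2 difference of all genes was 0.0733 there, and -0.21 for the sterol genes, of which 1 was higher and 2 were lower at an unadjusted p below 0.05 (all genes 6.12% and 3.54%). Barrier lipid genes had a median of -0.18 and suprabasal genes of -0.47. Hair markers stood apart here: 17 hair shaft genes had a median of 7.03 with 16 higher at that level, 6 inner root sheath genes 6.27 with 5 higher, and 3 melanocyte genes 2.96 with all 3 higher. Krtap3-1 had 9.09, 5.10 and 7438 CPM in K14-OPN libraries 1, 2 and 11, 6124 and 8.10 CPM in WT libraries 10 and 11, and 27.7, 62.7 and 8.89 CPM in OPN-null libraries 8, 9 and 10. K14-OPN 11 and WT 10 thus stood apart from all others, and the part of hair in the other differences without UVB was not tested. No gene's averaged difference after UVB departed from that without UVB by edgeR (0%), with 1416 at an unadjusted p below 0.05 (7.49%) and 35 called by DESeq2. These groups held 2 to 3 libraries each, and a difference that did not pass is not shown to be absent.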

How the data were processed

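Per the labels' protocols, RNA of scraped epidermis was sequenced as polyA RNA. The submitters' processing notes name HTSeq 0.11.3 and STAR 2.7.5a with GRCm38, beside Trim Galore 0.6.5 and bcl2fastq 2.18.0.12. Annotation release, counting mode and use of strand: not given in the sources used here. Reads of overlapping and antisense genes therefore cannot be told apart. The authors deposited raw counts per gene (56246 genes, 55230 with a symbol) with 5 summary lines per library. Library sizes and tests exclude these: reads on no feature were 20.8% to 44.0% of a library's total, ambiguous reads 2.51% to 8.03% and multiply aligned reads 15.3% to 26.8%.

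From these counts, edgeR 4.0.16 in R 4.3.3 was used with TMM scaling, filterByExpr (minimum count 10, minimum total 15), a quasi-likelihood fit over the 10 irradiated libraries with 3 genotype means and library kind, and Benjamini-Hochberg adjustment over all 16226 genes tested, with a threshold of 0.05. Differences are the mean of K14-OPN and WT minus OPN-null. Values without UVB came from a fit over 18 libraries (18910 genes). Log2 CPM used a prior count of 2. Standard errors are the log2 fold change divided by the root of F. The biological coefficient of variation was 0.395. On simulated counts of this comparison with 15467 genes and a dispersion of 0.223, the fit recovered 66 of 66 genes changed 8-fold, 51 of 67 changed 4-fold and 4 of 67 changed 2-fold. At a dispersion of 0.04, with 15798 genes, it recovered 62 of 67 changed 2-fold. Alternatives were DESeq2 1.42.0, limma 3.58.1 with voom quality weights, RLE and upper quartile scaling, no filter, no library kind term, each kind alone, all 18 libraries, 1 group of 6 libraries, a fibroblast covariate, and each library left out. No 2 libraries of a group were alike within sampling noise (5 pairs of the same kind, r 0.884 to 0.977, chi-square per degree of freedom at least 39.6).

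The named genes were Spp1 and up to 12 per direction with a named symbol, a mean log2 CPM from 1 upwards and an averaged log2 fold change of 1 or more in size, by fold change among called genes and then by p. To these came the 4 members of smallest p in each described list, of which 1 is not reported here. The members and lists were chosen with earlier results of these data known. Counting error and the number of libraries limit the precision. Sequences are from RefSeq tables of GRCm38.p6.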

Additional observations from a re-analysis of the deposited data

Results flagged for a closer look

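In 8 genes, 1 of the 4 irradiated OPN-null libraries, each time the 7SK-rich OPN-null 16, lay far from the other 3. The gap to its nearest neighbour, as a share of the range of log2 CPM, was 0.8393 for Sprr2a3, 0.8903 for Gde1, 0.9421 for Celf4, 0.9336 for Bc1, 0.8353 for Fbxo36, 0.8627 for Gm9774, 0.9394 for Gm5805 and 0.9637 for Rps12-ps4, above the 95% limit of Dixon's test for 4 samples. The limit's rate of about 1 in 20 groups holds for samples of 1 kind. It does not apply here, since OPN-null 16 is 7SK-rich and the other 3 are Lars2-rich. The genes were also chosen from these same libraries, and the share over all genes was not computed. OPN-null 16 was the library farthest from the others in 23 of the 28 named or called genes. In Gde1 it stood at the level of the OPN-expressing libraries, and in the other 7 it was the lowest of its group.

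The 2 OPN-expressing genotypes differed from each other, by a test of the difference itself, in 2 of the named genes. K14-OPN minus WT was 2.8031 on the log2 scale for Pkd2 (adjusted p = 0.0124) and -1.8509 for B4galt6 (adjusted p = 0.0267).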

How the results depend on the processing

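In the averaged comparison, RLE and upper quartile scaling gave the same 1 higher and 6 lower counts. DESeq2 called 1334 genes (1328 with a shared sign), voom 787 (784), no filter on low counts 1426 (1389) and the Lars2-rich libraries alone 1446 (1442). Without the library kind term, over all 18 libraries, with a fibroblast covariate and as 1 group of 6 the number was 0. Leaving out 1 library gave 0 to 1928 calls (0 to 1924 with a shared sign). WT against OPN-null had 395 calls by DESeq2, 917 with no filter, 0 without the kind term, 83 in the Lars2-rich libraries and 0 to 1073 with 1 library left out. K14-OPN against OPN-null had 1713 by DESeq2, 1777 by voom, 1717 with no filter, 0 without the kind term, 1305 in the Lars2-rich libraries, 0 over all 18 and 0 to 1783 with 1 library left out. K14-OPN against WT had 825 by DESeq2, 1228 by voom, 928 with no filter, 0 without the kind term, 31 in the Lars2-rich libraries, 0 over all 18 and 0 to 627 with 1 library left out. Without UVB the calls were 170 by DESeq2, 349 with no filter, 175 in the Lars2-rich libraries and 0 to 44 with 1 library left out, and for the difference by UVB 35, 179 with no filter and 0 to 1. The cause of these shifts was not tested.

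Spp1 kept its direction throughout, but did not pass by voom (6.05, adjusted p = 0.108), without the kind term (6.59, 0.38), over all 18 libraries (6.64, 0.0646), as 1 group (6.72, 0.177) or with the fibroblast covariate (6.75, 0.0579), and gave 5.75 to 7.29 with 1 library left out. Of the 27 other named or called genes, DESeq2 called 27, voom 25 and the Lars2-rich libraries 26, and none changed sign in a fit over more than 1 kind. In the 7SK-rich libraries alone the sign turned for Bc1 (0.24), Itgav (0.22), Cd44 (0.18), Gm42793 (0.043), Sesn2 (-0.46), Areg (0.18), Col17a1 (-0.014), Hbegf (0.16), Jun (-0.18), Hsp90aa1 (0.067) and Hmmr (0.28). Only 2 numbers are shared between the K14-OPN libraries with and without UVB, and each pair joins 1 library of each kind (correlation of deviations -0.451 and -0.578). The labels do not say what the numbers mark, and they were not taken as pairs. With the replicate block, 0 genes were called without UVB and 0 for the difference by UVB, as without it. In simulated counts with the same dispersion for all genes, unlike the data, 2-fold changes were recovered in 62 of 67 genes at 0.04 and in 4 of 67 at 0.223.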
